A study of Mus musculus with 8 samples.

Results

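Core cardiac transcription factors are the DNA-binding proteins, and a cofactor without DNA binding of its own, that together switch on heart muscle genes. The 10 genes examined here were Nkx2-5, Gata4, Gata5, Gata6, Mef2a, Mef2c, Srf, Hopx, Tead1 and Etv1. They were matched by gene name in the array files, and make up 10 of 27732 gene names and 16 of 41174 probes on the array. The samples are sorted cells from hearts of E10.5 (midgestation) mouse embryos of the minKGFP transgenic line, a bacterial artificial chromosome line in which green fluorescent protein (GFP) reports minK (Kcne1), a potassium channel subunit. Hearts were digested with pancreatin and collagenase and the cells were sorted by fluorescence intensity. The 4 GFP-high samples are labelled conduction system cells and the 4 GFP-low samples chamber myocardium. Cells of both groups carry the transgene, so the groups differ in reporter brightness and not in genotype, and how many embryos were pooled for a sample is not given in the sources used here. The series' design text calls the samples biological replicates; p-values measure the spread between them.

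These factors work as a network. Nkx2-5 is a homeodomain protein, Gata4, Gata5 and Gata6 are zinc finger proteins that bind GATA sequences, and Mef2a, Mef2c and Srf are MADS-box proteins, of which Srf binds the CArG box. Hopx is an unusual homeodomain protein that does not bind DNA and restrains Srf, Tead1 is the DNA-binding partner of Yap1, and Etv1 is an ETS-domain factor known from fast-conducting heart muscle. In the heart they act on shared genes of contraction, conduction and natriuretic peptides, and loss of Nkx2-5 is known to harm the conduction system.

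None of the 10 genes passed the test between GFP-high and GFP-low. Gata4 and Hopx came nearest: each was higher on all 4 GFP-high arrays than on any GFP-low array, by 1.95-fold and 1.69-fold. Nkx2-5, Srf and Gata5 had positive differences with overlapping arrays, and Gata6 had a difference of 0.030. Mef2a, Mef2c, Tead1 and Etv1 had negative ones with overlapping arrays. A brighter probe under an older name of Tead1 lies outside the match by gene name and outside the member counts below. It was lower on all 4 GFP-high arrays than on any GFP-low array, with a difference of -1.06, and did not pass either. Values are log2 of the scanner's processed signal minus the array's 75th percentile, so a value of 0 is the signal at that percentile, and a difference is GFP-high minus GFP-low. The test was limma's moderated test over 12876 genes measured well above background on at least 4 of 8 arrays, each by its brightest probe, with Benjamini-Hochberg adjustment. It called 0 of the 10 members against 0.140% of all tested genes (0.0699% higher and 0.0699% lower in GFP-high). At an unadjusted p under 0.05 there were 2 members, both higher, against 14.3% of all tested genes and 7.94% in that direction. Groups did not overlap in 2 members, both higher in GFP-high, where 5.86% of all tested genes did so in that direction, and in 0 members in the other direction (3.08%).

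The arrays themselves differed. Between 36.3% and 50.7% of spots were well above background, the lowest share being that of GFP-high replicate 3, whose dimmest measured signal was also the highest of the 8 arrays, at -1.77. Kcne1, the sort's reporter gene, was higher on every GFP-high array on both of its probes, by 1.29 and 2.83. Each slide carried 4 of the arrays: replicates 1 and 2 of the groups were on slide 1, replicates 3 and 4 on slide 2. Over all tested genes the median difference was 0.16; it became 0.12 with scaling to commonly measured probes and 0.10 with quantile normalization or with normexp background correction. All 10 cardiomyocyte markers were above background on all 8 arrays, and their median difference was 0.33 with none past the test.

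The promoters of Srf and Hopx are shown because they hold the CArG box, the sequence that Srf itself binds, and Hopx is the member that restrains Srf. The 150 bases before each start are given 5′ to 3′ with the CArG boxes in capitals, from RefSeq on GRCm38.p6, chr17:46556163-46556312 and chr5:77115124-77115273, both on the minus strand.
Srf: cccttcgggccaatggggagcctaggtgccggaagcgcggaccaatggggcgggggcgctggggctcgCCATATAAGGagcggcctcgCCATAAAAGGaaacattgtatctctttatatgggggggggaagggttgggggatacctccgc
Hopx: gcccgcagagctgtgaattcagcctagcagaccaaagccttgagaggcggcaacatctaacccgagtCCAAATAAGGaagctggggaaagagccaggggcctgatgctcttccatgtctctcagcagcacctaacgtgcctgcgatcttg
The first Srf box starts 82 bases before the start and the second 62 bases before it, and the Hopx box starts 83 bases before its start.

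RefSeq start windows were at hand for 7 of the 10 members, in 11 entries, and 250 bases before each start were searched on both strands. The CArG box was found in Srf and Hopx and in 1.47% of all 32851 windows. The second Hopx start had no box. The GATA motif (AGATAA, the same with T in the first place, and both with G in the last) was in none of the members' windows, against 26.5% of all windows, and TNAAGTG, which Nkx2-5 binds, was in none against 10.1%. The MEF2 site was in none against 2.92%. CATTCC, the Tead1 motif, was in windows of Etv1 and Mef2c (12.6% of all), and CCGGAAG, an ETS motif, was in Srf (6.91%). These are matches of letters in short windows and show no binding.

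Among the homeodomain members, Nkx2-5, which marks heart muscle cells from their origin, was read by 1 probe (mm9 chromosome 17, 26975621 to 26975680). It was above background on all 8 arrays. GFP-high replicates 1 to 4 read 3.96, 3.91, 2.97 and 4.16, and GFP-low replicates 2.81, 2.92, 2.83 and 3.59. GFP-high replicate 3 lay near the low GFP-low arrays and GFP-low replicate 4 stood apart above its group, so the groups overlapped. The means were 3.75 ± 0.53 and 3.04 ± 0.37 (SD, n = 4 each). The difference was 0.71 ± 0.33 (SE, 1.64-fold, 95% interval 0.965-fold to 2.78-fold, limma adjusted p = 0.371). It was 1.07 within slide 1 and 0.36 within slide 2. Without GFP-high replicate 3 it was 0.97, the highest value with 1 array left out.

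Hopx (chromosome 5, 77516460 to 77516519) was also read by 1 probe, measured on all arrays. GFP-high replicates 1 to 4 read 5.47, 5.61, 5.40 and 5.04, and GFP-low replicates 4.64, 4.28, 4.97 and 4.61. The lowest GFP-high array, replicate 4, was just above the highest GFP-low array, replicate 3, so the groups did not overlap. The difference was 0.76 ± 0.25 (SE, 1.69-fold, 95% interval 1.14-fold to 2.51-fold, unadjusted p = 0.0153, limma adjusted p = 0.261). It was 1.08 within slide 1 and 0.43 within slide 2.

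**Figure D1:**
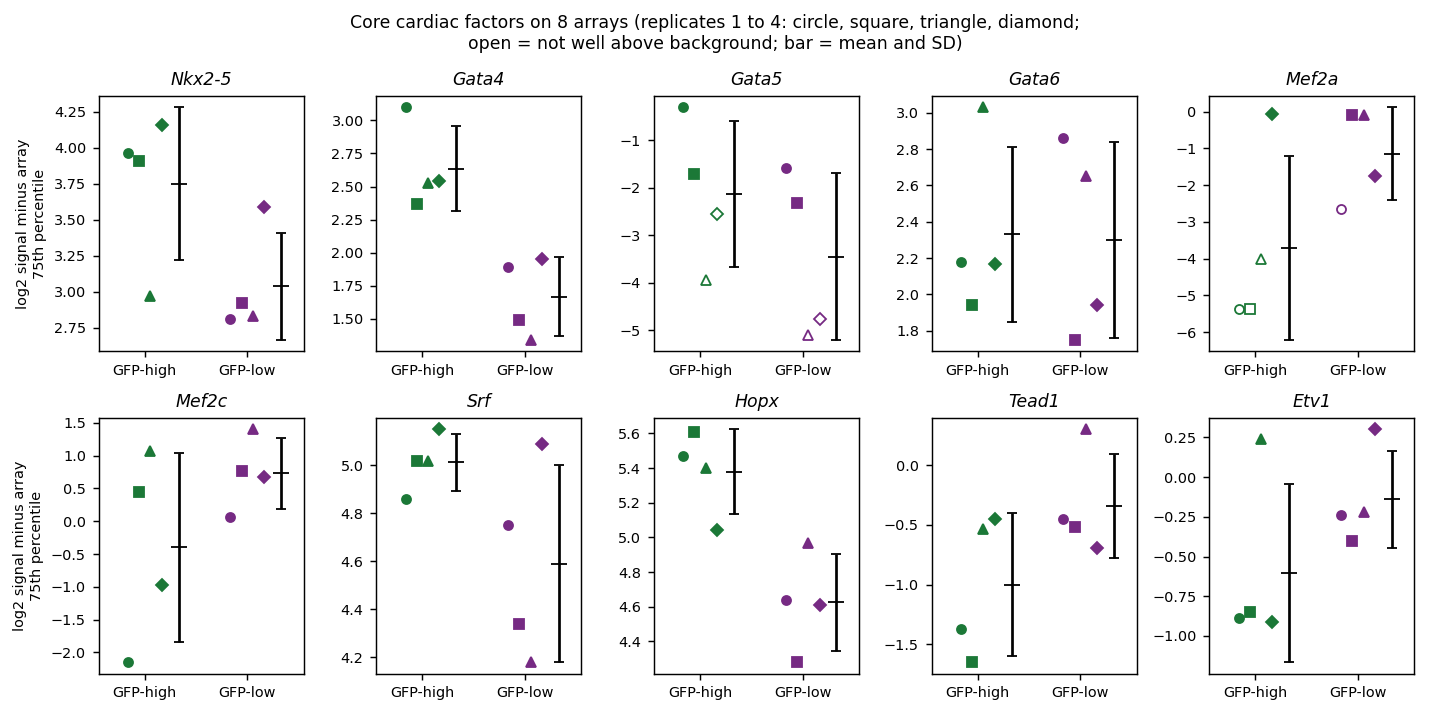
Each panel plots the brightest probe carrying 1 member's name on the 8 arrays, as log2 signal minus the array's 75th percentile. Symbols mark replicates, open where the signal was not well above background, with the mean and SD of each group. Gata4 and Hopx are the panels where no GFP-low array reaches the GFP-high arrays, and Gata5 and Mef2a are the panels with open symbols.

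Of the GATA factors, Gata4, a main activator of heart muscle genes, had 2 probes that could be compared. Their target sites are shown because they are separate stretches of the transcript that gave nearly the same difference. The first 30 bases of each 60-base probe are given, with a polyadenylation hexamer in capitals. The brighter probe (transcript base 2938) holds AATAAA, which with ATTAAA occurs in 7.5% of all probes, and the other (transcript base 2160) holds none.
Gata4 base 2938: ctagaaaatacagactgtttgcaaAATAAA
Gata4 base 2160: gaagcccaccttggctgcaagcacagcaca
The brighter probe lies at chromosome 14, 63818147 to 63818206, and has 28.3% G and C against 53.3% in the other. It had 10 spots on each array and the other had 1, so their spreads do not rest on equal measurement. The other is placed on only 22 bases, 63817752 to 63817773. On the minus strand that is downstream of the brighter probe, at odds with the order of their transcript bases.

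On the brighter Gata4 probe GFP-high replicates 1 to 4 read 3.10, 2.37, 2.53 and 2.54, and GFP-low replicates 1.89, 1.49, 1.34 and 1.95. Every GFP-high array was above every GFP-low array, which 5.18% of all tested probes also showed. The difference was 0.97 ± 0.27 (SE, 1.95-fold, 95% interval 1.28-fold to 2.99-fold, unadjusted p = 0.00629, limma adjusted p = 0.218), the smallest p of the 10 members. The gene was higher in 4 of 4 same-numbered pairs, by 1.04 within slide 1 and 0.89 within slide 2. The other probe read 1.92, 1.95, 0.99 and 2.08 in GFP-high and 1.49, 0.38, 0.65 and 0.96 in GFP-low. There GFP-high replicate 3 fell among the GFP-low arrays and the groups overlapped. Its difference was 0.86 ± 0.36 (SE, limma adjusted p over 18482 probes 0.340), and the brighter probe had 0.235 in that fit. Over probes, 0 of the 14 tested member probes passed, against 0.0379% of all tested probes.

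Gata5, a GATA factor of early heart and endocardial development, was near the limit of detection. Its probe (chromosome 2, 180060223 to 180060282) was above background on replicates 1 and 2 of both groups, the 4 arrays of slide 1, and on no array of slide 2. GFP-high replicates 1 to 4 read -0.30, -1.71, -3.95 and -2.55, and GFP-low replicates -1.59, -2.32, -5.11 and -4.77. Each GFP-high array was above its same-numbered GFP-low array, but the groups overlapped, on slide 1 as well as over both slides. The difference was 1.32 ± 0.996 (SE, limma adjusted p = 0.551), and 0.34 when dim values were raised to a common floor or 0.53 with normexp. Without GFP-high replicate 1 it was 0.71, without GFP-low replicate 3 it was 0.77 and without GFP-low replicate 4 it was 0.88.

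Gata6, the GATA factor that is also strong in endocardial and smooth muscle lineages, had 3 probes, at transcript bases 734, 1684 and 2599. The brightest, at base 2599, read 2.18, 1.94, 3.03 and 2.17 in GFP-high replicates 1 to 4 and 2.86, 1.75, 2.65 and 1.94 in GFP-low replicates. The difference was 0.030 ± 0.36 (SE, 95% interval 0.578-fold to 1.80-fold, limma adjusted p = 0.976), and its sign changed with the scaling (-0.021 with quantile normalization). The spread followed arrays and not groups: GFP-high replicate 3, GFP-low replicate 1 and GFP-low replicate 3 were the highest.

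The same 3 arrays stood out on the other Gata6 probes and in summed markers of blood, of heart muscle and of endothelium and endocardium. On the probe at base 1684 they read 1.75, 0.75 and 1.77, and the highest other array, GFP-high replicate 4, read 0.61. On the probe at base 734, of 80.0% G and C, they read -3.92, -3.11 and -3.56 and were the only arrays not above background, while the others read -2.05 to -1.70. The summed signal of the 5 tested blood genes was 185, 172 and 118 times the 75th percentile signal on these arrays and 12.7 to 46.0 on the other 5. The summed signal of the 10 cardiomyocyte markers was lowest on these arrays, at 2825, 2804 and 1928, and 3414 to 4377 on the others. The 75th percentile signal, which divides all these sums, was itself highest on these arrays. It was 184, 196 and 217 there and 138 to 156 on the others. The summed signal of the 5 tested endothelial and endocardial markers was highest on these arrays, at 5.10, 5.36 and 3.78. It was 1.64 to 3.19 on the others. These markers did not all move together there. Nfatc1, an endocardial factor, was highest on these arrays (1.41, 1.96 and 1.20, against -0.34 to 0.57). Cdh5, above background on 5 arrays, was also highest there (0.37, -1.77 and -0.94, against -5.11 to -2.29). Flt1, a vascular growth factor receptor, was lowest (-1.57, -1.40 and -1.62, against -1.17 to -0.69). Kdr and Esam were neither. The part of these cells, of RNA quality or of the array scaling in the Gata6 levels and in these sums was not tested.

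**Figure D2:**
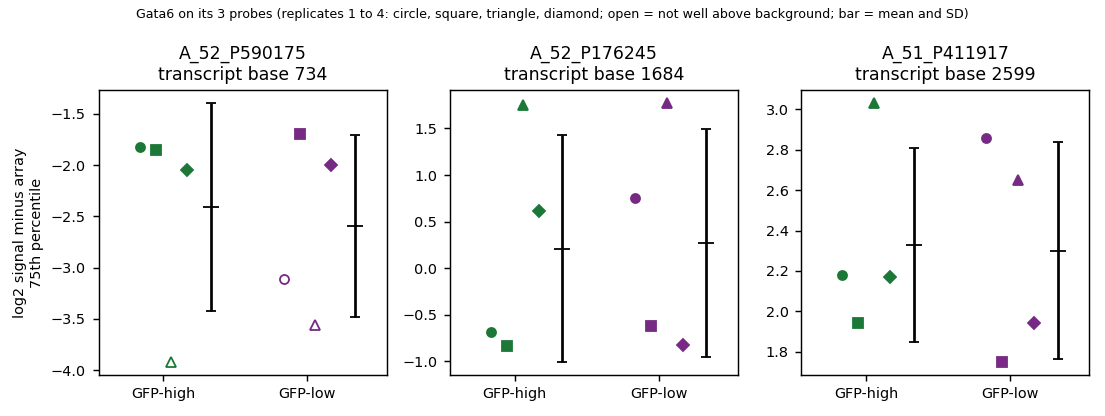
The 3 panels plot Gata6 probes by their place in the transcript, with log2 signal minus the array's 75th percentile on the vertical axis, 1 symbol per array, open where not well above background, and the mean and SD of each group. GFP-high replicate 3 (triangle), GFP-low replicate 1 (circle) and GFP-low replicate 3 (triangle) are the lowest arrays at base 734 and the highest at base 2599.

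Among the MADS-box members, Srf, the factor that binds CArG boxes, had the smallest range over the 8 arrays, 0.98. Its probe is placed on only 8 bases, chromosome 17, 46683788 to 46683795. GFP-high replicates 1 to 4 read 4.86, 5.02, 5.02 and 5.15, and GFP-low replicates 4.75, 4.34, 4.18 and 5.09. The GFP-high arrays lay close together and 2 GFP-low arrays reached or neared them, so the groups overlapped. The difference was 0.43 ± 0.27 (SE, 1.34-fold, 95% interval 0.882-fold to 2.05-fold, limma adjusted p = 0.477), 0.40 within slide 1 and 0.45 within slide 2. It was 0.19 with normexp and 0.27 with quantile normalization.

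Mef2c, a MADS-box factor of the early heart field, was measured on all arrays by the probe at chromosome 13, 83802754 to 83802813. GFP-high replicates 1 to 4 read -2.15, 0.45, 1.07 and -0.97, and GFP-low replicates 0.07, 0.77, 1.40 and 0.68. It was lower in GFP-high in 4 of 4 same-numbered pairs, with pair differences of -2.22, -0.33, -0.33 and -1.64, yet the groups overlapped. The difference was -1.13 ± 0.68 (SE, 95% interval 0.157-fold to 1.33-fold, limma adjusted p = 0.460). Without GFP-high replicate 1 it was -0.55, and with normexp it was -0.66. A second Mef2c probe, designed on another transcript, was above background on no array.

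Mef2a, its close relative, had 3 probes, each measured on few arrays. The brightest was above background on GFP-high replicate 4 and on GFP-low replicates 2, 3 and 4. It read -5.38, -5.37, -4.00 and -0.07 in GFP-high and -2.65, -0.09, -0.10 and -1.74 in GFP-low. The single measured GFP-high array was level with the 2 brightest GFP-low arrays. The fitted difference was -2.56 ± 1.20 (SE, limma adjusted p = 0.367). It was -0.71 with normexp background correction and -0.42 with the common floor, settings that shrink differences between dim signals by construction. The other probes differed by -0.95 and -1.02, above background on 4 and 3 arrays.

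Tead1, the DNA-binding partner of Yap1, was read by 1 probe of that name (chromosome 7, 120043000 to 120043059). GFP-high replicates 1 to 4 read -1.37, -1.65, -0.53 and -0.45, and GFP-low replicates -0.45, -0.52, 0.30 and -0.69. Replicates 1 and 2 of GFP-high were the lowest and the groups overlapped. The difference was -0.66 ± 0.37 (SE, 95% interval 0.354-fold to 1.13-fold, limma adjusted p = 0.432), -1.03 within slide 1, -0.29 within slide 2 and -0.31 with normexp. A further 2 probes carry an older clone name in the files, 2610024B07Rik, which the RefSeq table lists as a synonym of Tead1. The brighter of them read 3.26, 2.71, 3.37 and 3.90 in GFP-high and 4.08, 4.27, 4.56 and 4.55 in GFP-low. No array of the groups overlapped, and the difference was -1.06 ± 0.31 (SE, limma adjusted p over all probes 0.239); non-overlap in that direction was found in 3.46% of all tested probes. The dimmer probe differed by -0.75 ± 0.58. All 3 probes thus had negative differences and none passed.

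Etv1 (chromosome 12, 39592634 to 39592694) read -0.89, -0.85, 0.24 and -0.91 in GFP-high replicates 1 to 4 and -0.24, -0.40, -0.22 and 0.30 in GFP-low replicates. In GFP-high, 3 arrays lay below all GFP-low arrays and replicate 3 lay among the highest. The difference was -0.46 ± 0.33 (SE, 95% interval 0.430-fold to 1.23-fold, limma adjusted p = 0.534), -0.74 without GFP-high replicate 3 and -0.24 with normexp.

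**Figure D3:**
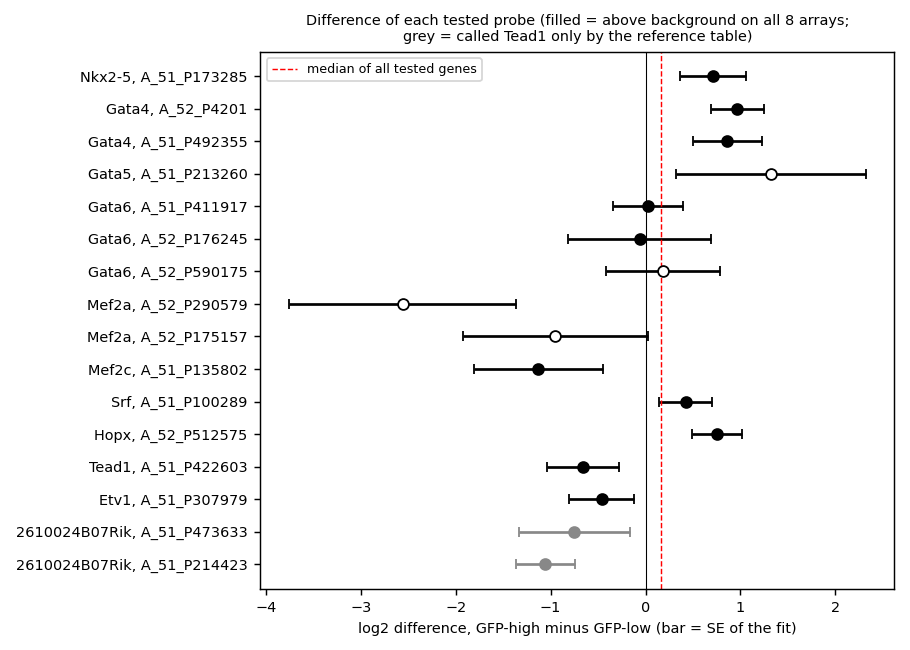
Each point is the log2 difference, GFP-high minus GFP-low, of 1 tested probe with the SE of the fit, filled where the probe was above background on all 8 arrays, grey for the 2 probes with the older Tead1 name, and the dashed line is the median of all tested genes. The 2 Gata4 probes sit together at 0.97 and 0.86, the 3 Gata6 probes straddle 0, and the Mef2a and Gata5 points are open with wide bars.

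As a group, 6 of 10 members had positive differences, and their median was 0.23 beside 0.16 over all tested genes. All 10 were tested, 8 of them measured on all 8 arrays, while Gata5 and Mef2a passed the filter with 4 arrays each. In bulk samples such as these, fewer cells of a type and less RNA per cell cannot be told apart. Across the 8 arrays Gata4 went with Hopx and Srf (Pearson r = 0.73 each) and with Nkx2-5 (0.70), and against Mef2c (-0.76), as a description of 8 arrays that share the group difference. The genes most like Nkx2-5 were Fxyd6 (r = 0.983) and Zic4 (0.977), those most like Gata4 were Nr1d1 (0.972) and Gabarapl2 (0.970), and those most like Hopx were Lypla2 (0.969) and Apc (0.959). Gata6 was most like Vim (0.981), whose own difference was 0.044, and Rtn3 (0.977). Srf was most like Mavs (0.984) and BC048679 (0.960), and Gata5 most like Tmem198b (0.974) and Cyp2u1 (0.957). For Mef2c these genes were Eif2s2 (0.964) and Ogt (0.962), for Mef2a Dnajc2 (0.995) and Prkaa2 (0.972), for Tead1 Atf2 (0.975) and Slc25a40 (0.965), and for Etv1 Rbm18 (0.934) and Sertad2 (0.932).

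Partners of these factors split in direction. Of 22 cofactors and partners, 18 were tested, 0 rose, 0 fell and 18 did not pass, and 4 had an unadjusted limma p under 0.05 (14.3% of all tested genes did). Positive differences were found in 8 and negative ones in 10, and the median was -0.11. Hand1, a helix-loop-helix factor of the left ventricle, read 1.66, 1.88, 2.36 and 2.37 in GFP-high and 3.40, 3.03, 3.41 and 3.76 in GFP-low, without overlap. Its difference was -1.33 ± 0.28 (SE, limma adjusted p = 0.145). Tbx5, the T-box partner of Nkx2-5 and Gata4, also did not overlap, with -1.07 ± 0.36 (0.265). On the positive side were Nfatc4, a calcium-regulated factor that partners Gata4, at 1.36 ± 0.31 (0.159) without overlap, and Hdac5, a repressor of Mef2 proteins, at 0.81 ± 0.40 (0.388).

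Of 12 other members of the same families, 8 were tested, 0 rose, 0 fell and 8 did not pass (2 at an unadjusted limma p under 0.05, beside 14.3% of all tested genes). The median was 0.49, with 6 positive, where 7993 of all 12876 tested genes were positive. Nkx2-6 had 0.94 ± 0.36 (SE, limma adjusted p = 0.302) and Etv5, a relative of Etv1, 1.1 ± 0.47 (0.340), so the signs of Etv5 and Etv1 differed, a difference that was not tested. Gata3 had -1.16 ± 0.95 and Gata2 -0.32 ± 1.46, both measured on 4 or 5 arrays.

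All 32 genes of a list of textbook targets were tested, 0 rose, 0 fell and 32 did not pass. An unadjusted limma p under 0.05 was found in 5, a share near the 14.3% of all tested genes. Positive differences were found in 25, beside 7993 of all 12876 tested genes, and the median was 0.33. All cardiomyocyte markers except Ttn are also in this list, so their median, also 0.33, is not a separate result. Id2, a helix-loop-helix inhibitor, had 1.50 ± 0.22 (SE, limma adjusted p = 0.0654), and Csrp3, a Z-disc protein, 0.82 ± 0.24 (0.235). Nppa, the natriuretic peptide gene that Nkx2-5 and Gata4 activate, had -0.89 ± 0.22 (0.186), opposite in sign to both, and the connexin gene Gja1 had -1.53 ± 0.42 (0.202). Of 27 target genes with a RefSeq window, 4 held a CArG box: Actc1 had 0.56, Myl3 0.53, Acta1 0.42 and Myl7 0.32, none past the test.

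**Figure D4:**
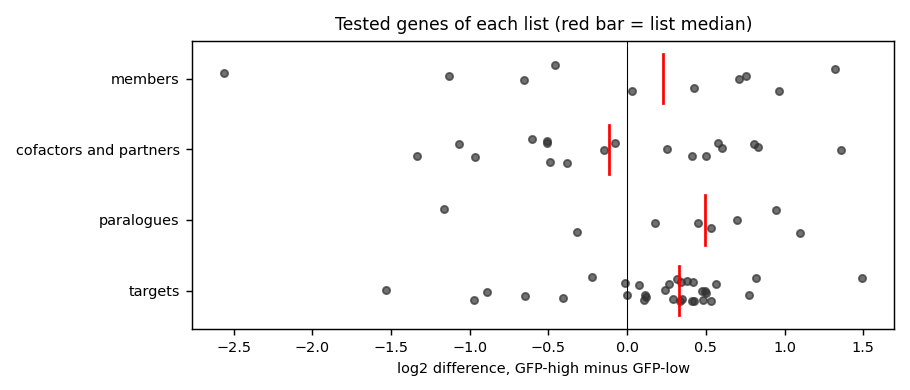
Each point is the log2 difference, GFP-high minus GFP-low, of 1 tested gene, by list, with the list median as a red bar. The medians are 0.23 for the members, -0.11 for cofactors and partners, 0.49 for paralogues and 0.33 for targets.

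Markers of other cell types were measured because several of these factors are also made outside heart muscle. Of endothelial and endocardial markers 5 of 10 were tested, with a summed signal of 1.64 to 5.10 in GFP-high and 2.19 to 5.36 in GFP-low; Pecam1 and Tek were above background on no array. Of epicardial markers 5 of 8 were tested (7.98 to 9.23 in GFP-high and 5.32 to 8.31 in GFP-low), of cushion mesenchyme markers 4 of 10 (2.01 to 4.45 and 2.69 to 10.9) and of blood markers 5 of 11 (25.6 to 185 and 12.7 to 172). Of neural crest and neuron markers 2 of 7 were tested (1.17 to 3.16 and 1.11 to 4.26), and of foregut endoderm markers 0 of 8. Cardiomyocyte markers summed to 2825 to 4377 in GFP-high and 1928 to 3478 in GFP-low. None of these genes passed the test, and the part of other cells in the members' differences was not tested.

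**Figure D5:**
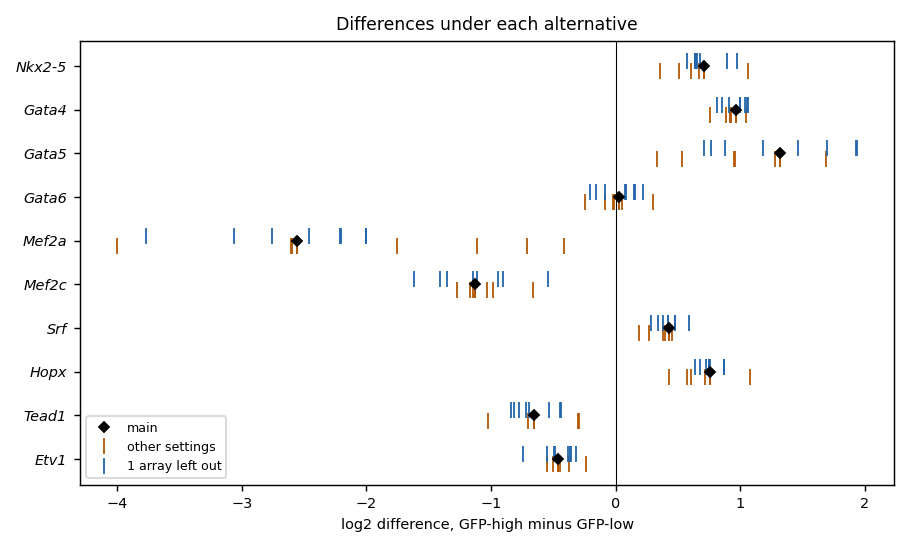
Each row is 1 member, with its log2 difference in the main fit (diamond), under other processing settings (brown ticks) and with 1 array left out (blue ticks). The Gata4 values stay between 0.76 and 1.06, those of Gata6 lie on both sides of 0, and those of Mef2a run from -4.01 to -0.42.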

How the data were processed

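Per the labels' protocols, 5 ng of RNA from each sorted sample was amplified and 2 ug of product was labelled with 1 dye. The authors deposited 1-colour Agilent scanner files of spot intensities, 1 array per sample, read with Agilent Feature Extraction 10.5.1.1 per the submitters' processing notes. Its background subtraction and detrending preceded deposit, and the deposited value table held the same intensity values. Values used here are log2 processed signals from which the array's 75th percentile (log2) was subtracted. Control spots and outlier spots were left out, and spots of a probe were averaged. Each of 27732 gene names was represented by its probe of highest mean signal, updated from accessions through GRCm38.p6 where matched (33064 of 41174 probes). Members were an exception: probes with the older Tead1 name kept that name. Tead1 was thus represented by its dimmer probe of the current name. Testing required that at least 4 arrays measured that probe well above background (12876 genes); the same filter left 18482 probes. GFP-high was compared with GFP-low with limma 3.58.1 in R 4.3.3 (lmFit, eBayes, Benjamini-Hochberg, threshold 0.05), after a test on simulated data.

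The 10 genes and the lists were chosen with earlier results of these data known. Genes named are all 10 members, the 2 tested genes with the smallest p in each direction of each list of cofactors, paralogues and targets, the 2 genes most correlated with each member, the sorted reporter's gene Kcne1, the targets with a CArG box in their window, and marker genes chosen after their values were seen. Alternatives covered background correction, scaling, detection filters, a floor for dim values, probe choice, slide, replicate number, variance model and each array left out. The normexp background correction added an offset of 50 to the signals, and the common floor was -1.77. Both shrink differences between dim signals by construction.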

Additional observations from a re-analysis of the deposited data

Results flagged for a closer look

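In 4 of 30 groups of 4 arrays, a member's probe had an array that stood far from the other 3, by Dixon's criterion at 0.829. Chance gives about 1 in 20 such groups. For Nkx2-5 it was GFP-low replicate 4, at 3.59 above its group. GFP-high replicate 3 was the array in the other 3 cases: 0.99 on the dimmer Gata4 probe, below its group, -3.92 on the Gata6 probe at transcript base 734, where it was not above background, and 0.24 for Etv1, above its group. This array had the smallest share of spots above background, 36.3%.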

How the results depend on the processing

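No member gene or member probe passed under any of the alternatives run. The 9 member genes other than Gata6 kept their sign in all alternatives that gave a value. Detection filters, the slide and replicate blocks, the variance model and the deposited value table left each member gene's difference unchanged. The sign could not move in those settings, so only the others bear on it. The smallest adjusted p of a member was 0.106, for Gata4 with the common floor. Gata6 was -0.088 with normexp, -0.021 with quantile normalization, -0.011 with scaling to commonly measured probes, -0.24 within slide 1 and -0.20 to 0.22 with 1 array left out. Its probe at base 1684 was 0.71 within slide 2 and -0.58 to 0.44 with 1 array left out. Its probe at base 734 was -0.018 with quantile normalization, -0.017 with the common floor, -0.21 within slide 2 and -0.14 to 0.68 with 1 array left out. A dimmer Mef2a probe was 0.10 with normexp and 0.061 with the common floor. The cause of these reversals was not tested.

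The count over all genes, 18, was 9 with quantile normalization, 4 with scaling to commonly measured probes, 3 without a filter, 11 with probes above background on all 8 arrays or with the slide as a block, 44 with the common floor, 0 within slide 1 and within slide 2 (limma, 1571 and 790 at an unadjusted p under 0.05), and 0 to 7 with any 1 of the 8 arrays left out. Among the targets 1 gene, Id2, passed with normexp, the common floor, trend and robust fitting, or probes measured on all arrays (adjusted p 0.0154 to 0.0476).

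With the replicate block 0 genes passed limma, and 2381 had an unadjusted p under 0.05. Deviations of same-numbered arrays correlated at 0.114, 0.153, 0.303 and 0.065, all positive. GFP-low replicate 4 correlated slightly better with GFP-high replicate 1, at 0.078, and every other GFP-low array correlated best with its own number. These values do not settle whether the numbers mark pairs. The main test did not use them as pairs. Gata5 and Mef2a were not measured on all 8 arrays, so that filter gave no value for them. Signal over background limits both.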
